A study of Sus scrofa with 6 samples.

Results

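Antigen presentation was examined in the backfat of castrated and intact male pigs through 10 genes. The class I route was represented by SLA-1, B2M, TAP1, PSMB8 and PSMB9, and the class II route by SLA-DMA, SLA-DRA, SLA-DQA1, SLA-DMB and CD74. The members were all probe sets, groups of short probes that report on 1 transcript, whose only gene symbol in the annotation of the Affymetrix array was 1 of these 10. Of 23999 probe sets, 19 met this rule, 13 of class I and 6 of class II, and they covered 8 of the 10 genes, out of 6765 genes with a symbol of their own on the array. SLA-1 and PSMB9 were left out, since neither symbol stood alone on a probe set, and so were 4 probe sets that list SLA-1 beside other genes.

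Barrows, males castrated by surgery at 7 days of age, were compared with boars, their intact full brothers, to learn how removal of the testes alters gene expression in subcutaneous fat. All were crosses of Pietrain sires and Landrace dams, were weaned at 30 days, ate freely and were slaughtered at 175 days, when backfat (its middle layer, from the 6th rib) was taken. Each of the 6 arrays, 3 for barrows and 3 for boars, measured a pool of RNA from 5 pigs, so the spread given below is that between pools and not between single animals. The labels state separate pools for the replicates of each kind.

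Class I molecules, built from a heavy chain and the light chain B2M, are carried by nearly all nucleated cells and display peptides cut from proteins of the cell itself by the proteasome. TAP moves these peptides into the endoplasmic reticulum. Class II molecules are carried mainly by macrophages, dendritic cells and B cells and display peptides of material taken up from outside, with CD74 guarding the binding groove and the DM heterodimer exchanging the peptides. In pigs the major histocompatibility complex is called SLA. Interferons are known to raise class I genes and the immunoproteasome, and interferon gamma also raises class II genes.

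The arrays were alike in level. Median signals ran from 162 to 171 on barrow arrays and from 165 to 173 on boar arrays, and the log2 signals of any pair of arrays correlated at 0.975 to 0.988. Adiponectin, ADIPOQ, a defining product of fat cells, had signals of 18954 to 23039 in barrows and 21686 to 23053 in boars. Differences are on the scale of log2(signal + 16), barrow minus boar, and were tested with limma over 14399 probe sets, the brighter 60%, with a threshold of 0.05 for the Benjamini-Hochberg adjusted p.

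No tested gene of either route of antigen presentation was called different between barrow and boar fat. Of the 19 member probe sets 17 passed the filter on low signal, and 0 of these 17 passed the threshold (limma, adjusted p from 0.25 to 0.95), where 1.16% of all tested probe sets did. With the replicate number as a block in the fit, 338 of all tested probe sets passed in place of 167, and still 0 of the 17 members. With an unadjusted p under 0.05 there were 2 of 17, both higher in barrows, against 12.2% of all tested probe sets (5.96% higher and 6.22% lower). The barrow and boar signals did not overlap in 2 of 17, 1 higher and 1 lower, against 18.1% of all tested probe sets (8.38% higher and 9.76% lower). The barrow mean was the higher in 8 of 17, against 46.6% of all tested probe sets. The median absolute log2 difference was 0.11 over the members and 0.12 over all tested probe sets. The members' 95% confidence intervals together ran from a fold of 0.691 to a fold of 1.44, so for each of these 17 a doubling or a halving on this scale lay outside its interval.

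**Figure D1:**
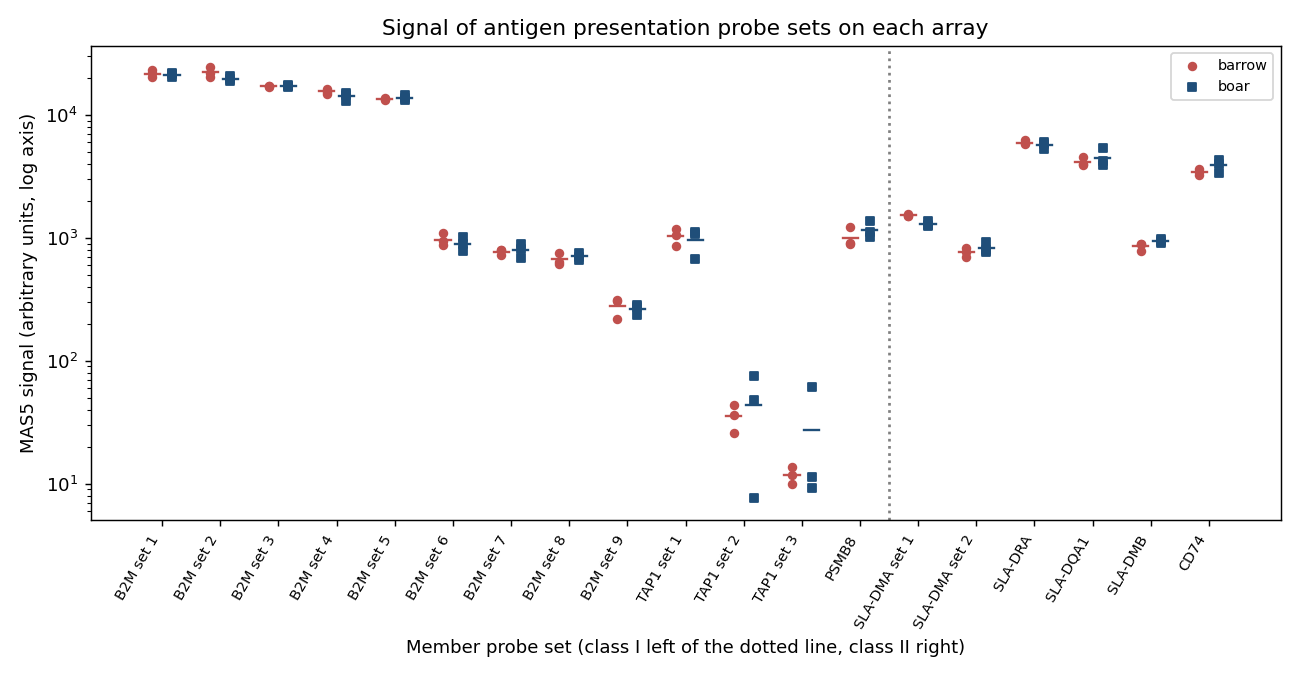
MAS5 signal (log axis) of the 19 member probe sets on each array, with barrow pools as circles and boar pools as squares, and a short line at each group's mean (n = 3 each). Probe sets of 1 gene are numbered by falling signal. Signals of barrows and boars overlap in all but SLA-DMA set 1 and SLA-DMB, and the 2 dimmest probe sets, both of TAP1, vary most.

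Beta-2-microglobulin, the light chain shared by all class I molecules, had 9 of the 13 class I probe sets. Of these, 5 were very bright, with 13321 to 24419 in barrows and 13013 to 21817 in boars, and lay above the 99th percentile of all probe sets by mean signal. The brightest had signals of 23294, 21860 and 20254 in barrow pools 1 to 3 and 21665, 21817 and 20324 in boar pools 1 to 3, and the groups overlapped. Its fold was 1.02 (95% CI 0.924 to 1.13, limma adjusted p = 0.90). The highest signal on any of the 6 arrays was 32517, and whether signals this close to the top still follow the amount of transcript was not tested.

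The 4 other B2M probe sets were far dimmer, between 220 and 1100 in barrows and between 236 and 1016 in boars. Over all 9 the log2 difference ran from -0.08 to 0.17, with 5 above 0 and 4 below 0. The greatest, of B2M set 2, came from signals of 24419, 22212 and 20556 in barrow pools and 18894, 20940 and 19667 in boar pools. It had an unadjusted p of 0.040 and a limma adjusted p of 0.38, and the groups overlapped through barrow pool 3 and boar pool 2. The RefSeq table (Sscrofa11.1) holds 2 neighbouring genes named B2M with no other protein-coding gene between them, while the array annotation gives 1 gene identifier to all 9 probe sets. The signals may therefore be shared between the 2 copies.

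TAP1, a subunit of the peptide transporter, had 3 probe sets, of which 1 passed the filter. The signals of that one were 1053, 868 and 1177 in barrow pools 1 to 3 and 1080, 681 and 1128 in boar pools 1 to 3. Pool 2 was the lowest in both groups and the groups overlapped, with a log2 difference of 0.12 (95% CI -0.28 to 0.52, limma adjusted p = 0.85). Without boar pool 2 the difference was -0.10. The 2 other TAP1 probe sets fell below the filter, with signals of 9.9 to 43.8 in barrows and 7.6 to 74.8 in boars, and were not tested. Both of them had their highest value in boar pool 3, at 74.8 and 61.2.

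PSMB8 encodes a catalytic subunit of the immunoproteasome, the form of the proteasome that takes over in cells exposed to interferon. Its signals were 1231, 904 and 892 in barrow pools and 1369, 1011 and 1122 in boar pools. Every barrow pool lay below the boar pool of the same number, but the groups overlapped, and the log2 difference was -0.21 (95% CI -0.53 to 0.11, limma adjusted p = 0.62). This was the largest difference in absolute value among the class I probe sets tested.

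Other genes of the class I route gave the same count of calls. Of 23 genes listed beside the members, 15 were tested and 0 rose and 0 fell (limma), against 1.16% of all tested probe sets in either direction. An unadjusted p under 0.05 was found in 1 of the 15, against 12.2%, and their median log2 difference was -0.05. The classical heavy chain SLA-2 had signals of 11502, 11830 and 10957 in barrows and 11977, 11503 and 12007 in boars (log2 difference -0.05, limma adjusted p = 0.81). SLA-3, another classical heavy chain, had 6673, 5514 and 7381 in barrows and 7392, 5367 and 7243 in boars, with pool 2 again the lowest in both groups. Heavy chain genes are near copies of each other, so probes can be shared among them. The non-classical SLA-8 had -0.16 in its brightest and -0.21 in its other probe set (limma adjusted p = 0.69 and 0.52).

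The gene nearest to a call in that group was PSME1, a subunit of the proteasome activator that interferon gamma induces. Its signals were 1912, 2229 and 1950 in barrows and 3119, 2270 and 2344 in boars, and the groups did not overlap. The log2 difference was -0.33 (95% CI -0.60 to -0.06) with an unadjusted p of 0.020 and a limma adjusted p of 0.29. Its partner PSME2 had 0.02 and the remaining immunoproteasome subunit PSMB10 had 0.02 (limma adjusted p = 0.96 and 0.97). Among chaperones of the endoplasmic reticulum that load class I, PDIA3 had -0.17 in its brightest probe set, where the groups did not overlap. It had -0.40 and -0.16 in its other probe sets, where they did. Calnexin, CANX, had 0.10 in its brightest probe set (limma adjusted p from 0.34 to 0.83 for these 4 probe sets). The 14 standard subunits of the proteasome core, PSMA1 to PSMA7 and PSMB1 to PSMB7, were all tested. Of these 0 passed in either direction, also at an unadjusted p under 0.05, against 1.16% and 12.2% of all tested probe sets. Their median log2 difference was 0.01 and the range was -0.15 to 0.12. The 4 with the smallest unadjusted p were PSMB3 with -0.15, PSMB1 with 0.10, PSMA4 with -0.10 and PSMA3 with 0.08 (limma adjusted p from 0.67 to 0.74).

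Among the class II members, the chains that bind peptide, SLA-DRA and SLA-DQA1, overlapped between the groups. SLA-DRA, the alpha chain of DR, had signals of 5894, 6229 and 5825 in barrows and 5845, 5276 and 6052 in boars (log2 difference 0.07, 95% CI -0.10 to 0.23, limma adjusted p = 0.79). The beta chain of DR, SLA-DRB1, which is not a member, had -0.12 in its bright probe set (limma adjusted p = 0.75). SLA-DQA1, the alpha chain of DQ, had 4599, 4002 and 3891 in barrows and 5383, 3922 and 4247 in boars (log2 difference -0.11, 95% CI -0.36 to 0.15, limma adjusted p = 0.78). Boar pool 1 stood above the other 5 pools in SLA-DQA1, and without it the difference was 0.03. Its partner SLA-DQB1 had -0.03 (limma adjusted p = 0.92).

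CD74, the invariant chain, had signals of 3672, 3271 and 3462 in barrows and 4297, 3353 and 4030 in boars. Pool 1 was the highest and pool 2 the lowest in both groups, and each barrow pool lay below the boar pool of its number. The log2 difference was -0.16 (95% CI -0.37 to 0.05, limma adjusted p = 0.57).

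The DM heterodimer, which exchanges peptides on class II molecules, had 3 probe sets, and none was called different. SLA-DMA set 1 had signals of 1502, 1575 and 1520 in barrows and 1252, 1365 and 1279 in boars (log2 difference 0.24, 95% CI 0.06 to 0.41, fold 1.18). Its unadjusted p was 0.014 and its limma adjusted p 0.25, the lowest of the 17 members. SLA-DMA set 2 had 834, 776 and 701 in barrows and 929, 797 and 775 in boars, with a difference of -0.11 (limma adjusted p = 0.75), so the 2 probe sets of this gene disagreed in sign. SLA-DMB had 892, 894 and 784 in barrows and 985, 911 and 944 in boars, a difference of -0.14 (95% CI -0.35 to 0.06, limma adjusted p = 0.60). The groups did not overlap in SLA-DMA set 1 and SLA-DMB, which lay on opposite sides of 0, and these were the 2 of 17 members set above against 18.1% of all tested probe sets.

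Of 19 other symbols of the class II route 11 were tested, and 0 rose and 0 fell (limma), against 1.16% of all tested probe sets in either direction. An unadjusted p under 0.05 was found in 2 of the 11, against 12.2%, and their median log2 difference was -0.07. IFI30, a reductase that opens disulphide bonds of antigens in lysosomes, had signals of 1113, 964 and 1219 in barrows and 1388, 1392 and 1387 in boars. The groups did not overlap, and the difference was -0.34 (95% CI -0.56 to -0.12) with an unadjusted p of 0.0057 and a limma adjusted p of 0.16. The lysosomal protease CTSD had 3125, 3126 and 3273 in barrows and 2292, 3060 and 2381 in boars, also without overlap. Its difference was 0.31 (unadjusted p = 0.014, limma adjusted p = 0.25, but 0.0401 without boar pool 2). The endopeptidase LGMN and the protease CTSB had 0.17 and 0.13 (limma adjusted p = 0.58 for both). CIITA, the coactivator that switches class II genes on, was dim, with 140 to 179 in barrows and 133 to 214 in boars, and had a difference of -0.14 (limma adjusted p = 0.84).

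**Figure D2:**
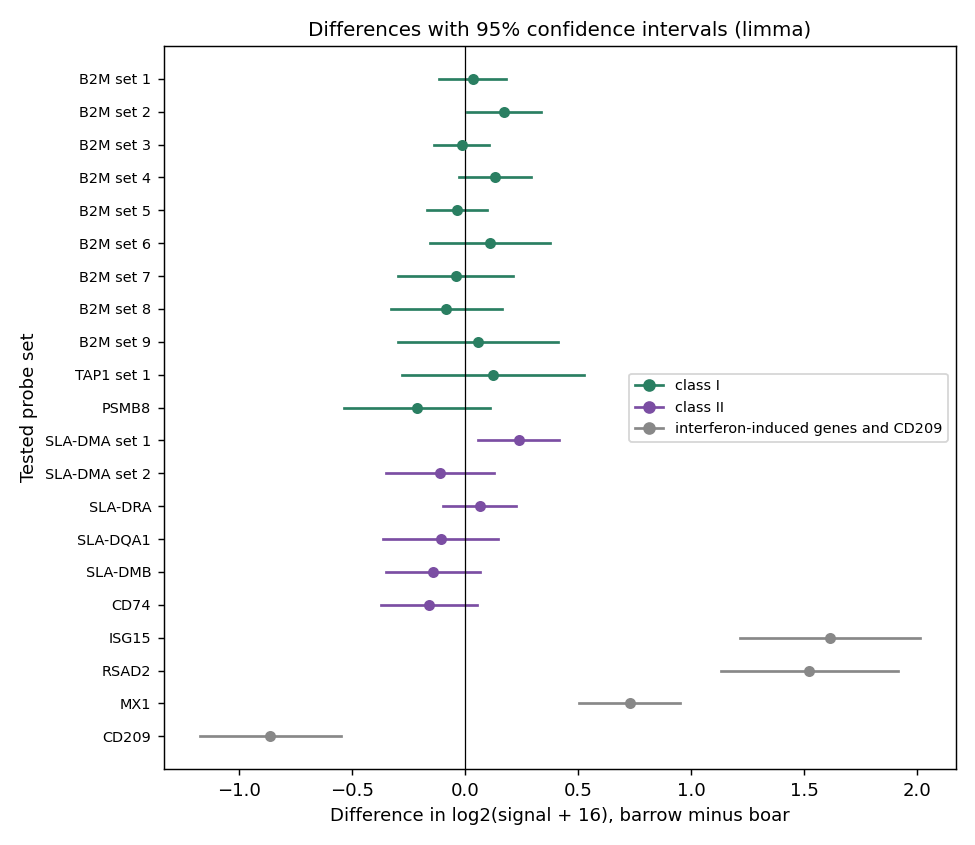
Difference in log2(signal + 16), barrow minus boar (horizontal axis), with its 95% confidence interval for the 17 tested member probe sets and for ISG15, RSAD2, MX1 and CD209. The members lie between -0.21 and 0.24, and 15 of their 17 intervals include 0 (not those of B2M set 2 and SLA-DMA set 1), while the intervals of ISG15, RSAD2, MX1 and CD209 do not.

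Class I and class II were set against each other without a test, because the members were chosen with results known. The median log2 difference was 0.03 over the 11 tested class I probe sets, 6 above 0 and 5 below 0, and -0.11 over the 6 class II probe sets, 2 above 0 and 4 below 0. Of the 11, 9 were of B2M, and the class I median was the value of B2M set 1, so it describes mainly that gene. Over all tested probe sets the median was -0.01. Called higher were 0 of 11 class I probe sets, against 0.701% of all tested probe sets, and called lower were 0 of 6 class II probe sets, against 0.458% (limma). At an unadjusted p under 0.05 each class had 1 probe set higher and 0 lower, B2M set 2 in class I and SLA-DMA set 1 in class II, where 5.96% of all tested probe sets were higher and 6.22% lower. The class II median rested on boar pool 1 and was -0.0034 without it.

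For a level per array, each gene was centred on its mean over the 6 arrays and averaged within its class, over 3 class I and 5 class II genes. The class I level was 0.10, -0.13 and 0.0033 in barrow pools 1 to 3 and 0.17, -0.21 and 0.07 in boar pools 1 to 3. The class II level was 0.03, -0.03 and -0.09 in barrow pools and 0.14, -0.08 and 0.03 in boar pools. The groups overlapped in both. Barrow minus boar, the mean level differed by -0.02 in class I and by -0.06 in class II. Over the 6 pools the centred B2M level stayed between -0.05 and 0.03. TAP1 ran from -0.52 to 0.26 and PSMB8 from -0.27 to 0.34, so these 2 genes set most of the class I level. Class I minus class II was 0.07, -0.11 and 0.10 in barrow pools 1 to 3 and 0.03, -0.13 and 0.04 in boar pools 1 to 3. Each barrow pool thus lay above the boar pool of its number, while the groups overlapped. The means were 0.02 ± 0.11 in barrows and -0.02 ± 0.09 in boars (SD, n = 3 each). Their difference of 0.04 is smaller than this spread, which includes the low pool 2 of both groups. It was -0.01 without boar pool 2, which leaves barrow pool 2 without a boar pool of its number.

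**Figure D3:**
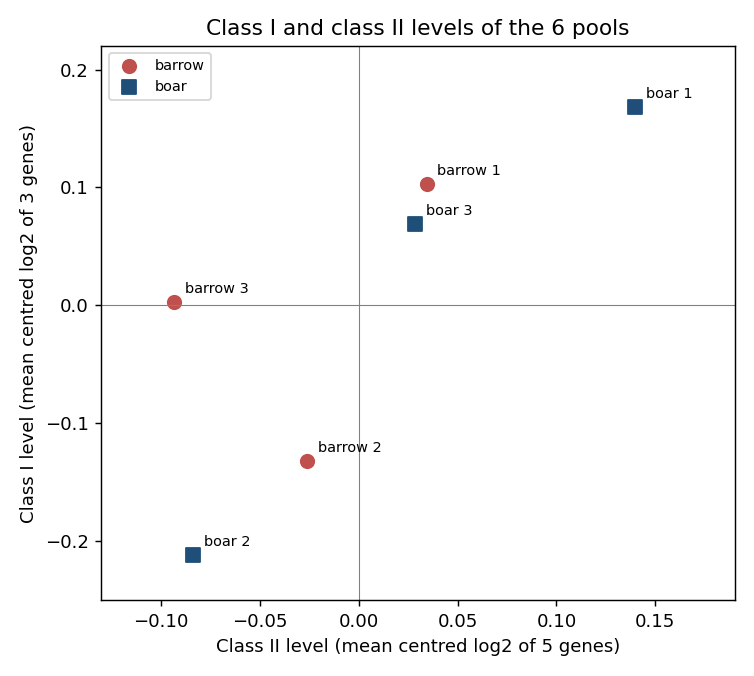
Class I level (vertical axis) against class II level (horizontal axis) of the 6 pools, both as means of log2 signals centred per gene. Boar pool 1 is the highest and boar pool 2 the lowest in class I, the barrow pools lie between them, and the groups are not separated along either axis.

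Pools of the same number were compared for each member. Counted over the 17 tested probe sets, 6 were lower in pool 2 of both groups than in the mean of pools 1 and 3, against 29.3% of all tested probe sets, and 4 were highest in pool 1 of both groups, against 11.4%. These counts are a description of few probe sets. For TAP1, the log2 signal of pool 2 minus the mean of pools 1 and 3 was -0.35 in barrows and -0.68 in boars. The same quantity was -0.21 in barrows and -0.29 in boars for PSMB8, and -0.12 in barrows and -0.31 in boars for CD74. SLA-3, outside the members, had -0.35 in barrows and -0.45 in boars. B2M set 1 had 0.0092 in barrows and 0.06 in boars, above 0 in both. The 4 highest in pool 1 of both groups were PSMB8, SLA-DQA1, CD74 and SLA-DMA set 2. What pools of the same number share is not stated in the labels.

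The members' profiles over the 6 arrays were described by Pearson correlations of the gene levels. The correlation ran from 0.0090 to 0.27 over the 3 pairs of class I genes, from -0.21 (SLA-DMA and CD74) to 0.84 (SLA-DQA1 and CD74) over the 10 pairs of class II genes, and from -0.25 to 0.93 over the 15 pairs across the classes. PSMB8, whose r was 0.27 with TAP1 and 0.0090 with B2M, had r = 0.93 with SLA-DQA1, 0.85 with CD74, 0.74 with SLA-DMB, 0.19 with SLA-DMA and -0.03 with SLA-DRA. B2M had its highest r, 0.76, with SLA-DMA, and TAP1 had its highest, 0.59, with SLA-DRA. With 6 arrays, of which same-numbered ones deviated together, these values are a description only.

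Genes of interferon signalling were set beside the members because interferons act on both routes. Of 22 genes listed 17 were tested, and 3 rose and 0 fell (limma), against 0.701% and 0.458% of all tested probe sets. The median log2 difference of the 17 was -0.00092. ISG15, a ubiquitin-like protein, had signals of 2623, 1533 and 2344 in barrows and 654, 797 and 604 in boars, a difference of 1.61 (95% CI 1.22 to 2.01, limma adjusted p = 0.0027). RSAD2, an antiviral enzyme, had 1562, 1016 and 1722 in barrows and 431, 546 and 460 in boars, a difference of 1.52 (limma adjusted p = 0.0032). MX1, an antiviral GTPase, had 0.73 (95% CI 0.50 to 0.95, limma adjusted p = 0.0087, at most 0.065 under other settings). These rises were known when the antigen presentation genes were chosen.

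IRF7, a transcription factor of the type I interferon response, had signals of 222, 215 and 191 in barrows and 104, 134 and 112 in boars, without overlap, but its difference of 0.77 did not pass (limma adjusted p = 0.055, but 0.0209 with array weights). Of genes that interferon gamma is known to raise, the guanylate-binding proteins GBP1 and GBP2 had -0.12 and 0.10, the chemokine CXCL9 had -0.32 and the transcription factor IRF1 had -0.10 (limma adjusted p = 0.64, 0.86, 0.61 and 0.78). These 4 were picked after their values were seen. The transcript of interferon gamma, IFNG, fell below the filter, with signals of 11.2 to 43.2 in barrows and 30.6 to 46.8 in boars. The intervals of ISG15 and RSAD2 lay wholly above those of TAP1 and PSMB8. That of MX1, from 0.50 to 0.95, lay above that of PSMB8 but overlapped that of TAP1, which reached 0.52. The difference between these genes was not tested.

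**Figure D4:**
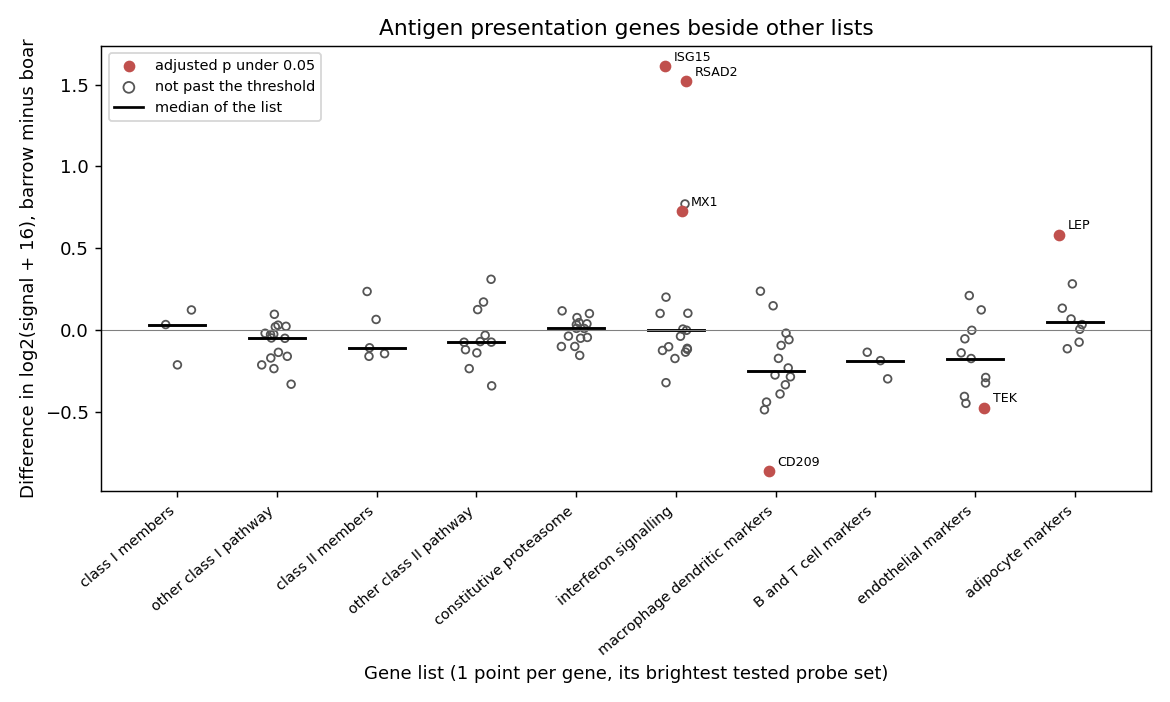
Difference in log2(signal + 16), barrow minus boar, of each tested gene in 10 lists, 1 point per gene by its brightest tested probe set. Filled points passed the threshold, open points did not, and the black line is the median of a list. The 4 antigen presentation lists and the standard proteasome have no filled point, and the macrophage and dendritic cell list has its median at -0.25.

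Markers of cells that carry class II molecules were measured in the same arrays. Over all 14399 tested probe sets, 7694 lay below 0, 0.458% fell and 0.701% rose (limma). Of 25 macrophage and dendritic cell markers 14 were tested, of which 12 lay below 0, 1 fell and 0 rose (limma), with a median log2 difference of -0.25. The one that fell was CD209, a lectin of dendritic cells and macrophages, with 635, 595 and 661 in barrows and 1373, 907 and 1243 in boars (log2 difference -0.86, 95% CI -1.17 to -0.55, limma adjusted p = 0.018, at most 0.12 under other settings). C1QA, a complement chain that macrophages make, had -0.44 (limma adjusted p = 0.13, but 0.035 once the replicate number was a block and 0.0486 without boar pool 2), and TYROBP and AIF1, which myeloid cells express, had -0.39 and -0.33 (limma adjusted p = 0.14 and 0.27). The summed signal of the 14 was 9930 to 11174 in barrows and 10797 to 13633 in boars. Of the 14, 2 lay above 0, CD83 with 0.24 and CD163 with 0.15 (limma adjusted p = 0.77 and 0.69). MRC1 and CD86 had -0.02 and -0.06 (limma adjusted p = 0.97 and 0.92). ITGAM fell below the filter, and the 10 without a probe set of their own, CD68 and CSF1R among them, were not analysed here.

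Of 17 B and T cell markers 3 were tested, CD3E, CD247 and CD2, with log2 differences of -0.30, -0.19 and -0.13 (limma adjusted p = 0.70, 0.72 and 0.89, and 0.0461 for CD247 without barrow pool 2). Their summed signal was 935 to 1469 in barrows and 1247 to 1318 in boars. CD79B, a chain of the B cell receptor, had signals of 2.9 to 29.0 in barrows and 2.0 to 33.4 in boars and fell below the filter, as did 4 others. Of 12 endothelial markers 11 were tested. Of these 1 fell, against 0.458% of all tested probe sets, and 0 rose, against 0.701% (limma). The gene that fell was TEK, the angiopoietin receptor, at -0.47 (limma adjusted p = 0.047, at most 0.25 under other settings). Its other tested probe set had -0.20, and there the groups overlapped (limma adjusted p = 0.73). The tight junction protein CLDN5 had -0.45 (limma adjusted p = 0.17, but 0.0373 with array weights and 0.0225 without barrow pool 2), the TGF-beta co-receptor ENG had -0.29 and the adhesion molecule PECAM1 had -0.14 (limma adjusted p = 0.30 and 0.41). Over all 14399 tested probe sets 7694 lay below 0, and of the 11 endothelial markers 9 did, among them VWF with -0.05 and CDH5 with -0.00092. The 2 above 0 were FLT1 with 0.21 and EGFL7 with 0.12, and the median was -0.17. PECAM1, the brightest of the 11, had -0.24 in its other tested probe set (limma adjusted p = 0.18). The summed endothelial signal was 15203 to 16002 in barrows and 17189 to 17895 in boars, without overlap. Of it, PECAM1 alone gave 6840 to 6992 in barrows and 7418 to 7965 in boars. Of 12 fat cell markers 8 were tested and 1 rose, against 0.701% of all tested probe sets. This was leptin (LEP), at 0.58 (limma adjusted p = 0.021, at most 0.13 under other settings). The other tested probe set of LEP had 0.45 (limma adjusted p = 0.24). The fatty acid carrier FABP4 had -0.11, the adrenergic receptor ADRB3 had 0.28 and the hormone-sensitive lipase LIPE had 0.13 (limma adjusted p = 0.61, 0.63 and 0.65). In RNA of a whole tissue, fewer cells of a type and less RNA per cell cannot be told apart, and the part of these markers in the class I and class II values was not tested.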

How the data were processed

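The authors deposited linear signal intensity values, 1 for each array and probe set, made with MAS5, per the submitters' processing notes. The MAS5 settings were not stated there. The 2% trimmed mean was about 500 on every array (500.09 to 500.10), as a global scaling by the authors would give. Detection calls were not used here, and precision is limited by the few arrays.

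The 124 control probe sets were left out. Of the other 23999, 10069 had 1 gene symbol in the platform annotation, 198 several and 13732 none. All 19 member symbols were the same in RefSeq (Sscrofa11.1) by gene identifier. Coordinates are left out because the array names no build. Signals were transformed to log2(signal + 16), a scale on which changes of dim genes are understated. The upper 60% by mean (a mean log2 of 6.76 or more) were compared with limma 3.58.1 in R 4.3.3 (lmFit, eBayes with an intensity trend, 2-sided, Benjamini-Hochberg over all 14399). The fit was tested on simulated data drawn independently for each array, so that check does not cover a likeness of same-numbered pools.

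The members and gene lists were chosen with earlier results of these data known. All member probe sets are named, and of each list every gene past the threshold and the 4 with the smallest unadjusted p, each by its brightest tested probe set. Genes outside this rule were chosen for context after their values were seen (SLA-2, SLA-3, PSME2, PSMB10, SLA-DRB1, SLA-DQB1, CIITA, ADIPOQ, GBP1, GBP2, CXCL9, IRF1, IFNG, CD79B, ITGAM, CD83, CD163, MRC1, CD86, VWF, CDH5, FLT1 and EGFL7, and C4A, C2 and FLOT1 of the SLA complex).

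Replicate numbers 1 to 3 occur in both groups. Deviations from group means, compared between same-numbered pools, correlated at 0.12, 0.17 and 0.26, all above the minimum of 0.1, against -0.19 to -0.01 for other combinations, so the numbers appear to pair the pools. The values reported come from the fit without a pairing, and the replicate block is an alternative. A pairing is read only from these data and the labels' numbers, not from a stated design. Alternatives were quantile normalization, median centring, pseudocounts of 1 and 64, no filter, the upper 40%, no trend, the replicate block, array weights, the brightest probe set of a gene and each pool left out.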

Additional observations from a re-analysis of the deposited data

How the results depend on the processing

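No member probe set passed the threshold under any of the 15 alternatives that refit the probe sets (lowest limma adjusted p = 0.13). Of 254 values of members under them, 243 kept their sign, and 11 turned it. The B2M difference of 0.03 (set 1) was -0.0103 under quantile normalization and -0.0148 to 0.0861 with 1 pool left out, and that of 0.06 (set 9) was -0.0513 with array weights and -0.0298 to 0.21 with 1 pool left out. With 1 pool left out, B2M set 3 ran from -0.0262 to 0.0017, B2M set 7 from -0.15 to 0.0453, TAP1 from -0.10 to 0.25, SLA-DQA1 from -0.20 to 0.0250 and, outside the members, CD2 from -0.41 to 0.0674. The median class I difference ran from -0.02 to 0.05 and the median class II difference from -0.17 to -0.0034 with 1 pool left out, and class I minus class II from -0.01 to 0.10, or -0.04 without a filter. The count of all changed probe sets, 167, was 338 with the replicate block, 425 with array weights, 96 without a filter, 32 without the intensity trend, and 27 to 290 with 1 pool left out, the highest without barrow pool 2. The cause was not tested. ISG15 and RSAD2 passed throughout, and MX1, CD209, LEP and TEK lost their calls in 3, 5, 4 and 7 alternatives. Calls were gained by C1QA and CLDN5 in 2 alternatives each and by IRF7, CTSD and CD247 in 1 each. Beside C1QA, the block changed no call of a named gene. The filter, the pooled animals and the absence of detection calls limit what can be said of dim probe sets such as those of TAP1.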

Other observations

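The SLA complex was also read as a stretch of neighbouring genes, a choice made after values were seen. In the RefSeq table (Sscrofa11.1) 120 protein-coding genes lie from SLA-1 to SLA-DOA, and 55 of them were tested by 70 probe sets. Within it PSMB8, TAP1 and PSMB9 follow each other, between TAP2 and BRD2, with the DR and DQ genes on one side and SLA-DMB and SLA-DMA on the other, so these class I genes sit among class II genes. Of the 70 probe sets 27 lay above 0 and 43 below 0, where 46.6% of all tested probe sets lay above 0. The median log2 difference of the 70 was -0.03. Called higher were 0 and called lower was 1 (limma), against 0.701% and 0.458% of all tested probe sets. At an unadjusted p under 0.05, 4 were higher and 4 lower, against 5.96% and 6.22%. Called lower was C4A, a complement component encoded in the complex, with signals of 2963, 2586 and 2935 in barrows and 6305, 4743 and 5903 in boars (log2 difference -0.99, limma adjusted p = 0.0025). Its neighbour in function, the complement protease precursor C2, had 275, 243 and 228 in barrows and 356, 352 and 367 in boars, without overlap (log2 difference -0.50, limma adjusted p = 0.096). FLOT1, a membrane scaffold protein, had 1935, 2035 and 2021 in barrows and 1652, 1621 and 1612 in boars (log2 difference 0.29, limma adjusted p = 0.10).

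The profiles most like the class I level over the 6 arrays, among 7174 tested probe sets with 1 symbol outside the members, were those of CLUAP1, STK26 and ARPC4 (Pearson r = 0.98, 0.98 and 0.97). Those most like the class II level were LOC102162486, CORO1A and SEC23A (r = 0.97 each). With 6 arrays and this many profiles these correlations are a description only.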
